A study of Mus musculus with 2 samples.

Results

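The nuclear genes of the mitochondrial respiratory chain were examined in splenic red pulp macrophages of mice. The members were the genes whose symbol begins with Nduf followed by a, b, c, s or v and a digit (complex I), Sdha to Sdhd (complex II), Uqcr genes and Cyc1 (complex III), Cox4 to Cox8 genes (complex IV) and Atp5 genes (complex V), together with Cycs, the cytochrome c gene. The RefSeq table used for names holds 107 such genes, of which 86 had a named probe on the array. Of these 86, 79 were measured, which means that the brightest probe of the gene was called well above background by the scanner software on at least 1 array. Over the whole array, 15827 of 20642 named genes were measured.

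The compared groups were wild-type (WT) mice and mice lacking SIRPα (SIRPα-KO), an inhibitory receptor of myeloid cells. Splenic cells were sorted as F4/80-positive with low CD11b, each pool held the cells of 5 mice of 1 genotype, and globin transcripts were removed from the RNA of both pools before labelling. The labels give no strain, age or type of deletion. Each genotype was therefore read on 1 array from 1 pool, so no difference has a replicate check, no test across samples was possible, and the spread between mice is unknown. Differences are log2 of the scaled signal on the array labelled SIRPα-KO minus that on the WT array, and the value after ± is the software's error of both spots carried to that difference, which covers spot measurement only. Where a pair of signals is given, the WT array comes first and the array labelled SIRPα-KO second. Pairs for single genes are signals before scaling, while every difference and fold is after scaling. The scaling values, the 75th percentile of each array, were 100.2 for WT and 89.2 for the array labelled SIRPα-KO. A fold can therefore not be read off a pair, and a pair that falls slightly can have a positive difference. Sirpa, the targeted gene, had signals of 795 and 1006, a difference of 0.51 ± 0.20. This does not bear out the label. The deleted stretch of the gene and the position of the probe were not used here.

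Of 16 markers of red pulp macrophages, 13 were measured. Adgre1, which encodes F4/80, had signals of 6830 and 10406, and Spic, the transcription factor these cells depend on, 53.6 on both arrays. Itgad, Mertk and Mrc1 were not well above background on either array. The macrophage list had a median difference of -0.10, with 6 of 13 genes (46.2%) above 0. For all measured genes the median was -0.094 and the share above 0 was 40.4%. Cd5l was 2.74-fold and C1qc 2.16-fold higher, while Cd163 was 1.48-fold lower and C1qa at least 1.70-fold lower. The summed scaled signal of the list, 148 and 208, is weighted to its brightest probes, Adgre1 among them. Over 10 lists of markers for other cells, the ratio of the summed signal (array labelled SIRPα-KO over WT) ran from 0.51 for T cells to 1.58 for dendritic cells, and was 0.83 for erythroid cells and 0.90 for B cells. These sums too are weighted to single bright probes. The B cell list had a median of 0.072 with 4 of 8 genes above 0, Cr2 4.21-fold lower and Cd22 1.61-fold higher. The erythroid list had a median of -0.25 with 2 of 7 genes above 0. The T cell list had a median of -0.012, with Cd8b1 at 27895 and 10283. The dendritic cell list had a median of 0.12 with 3 of 6 genes above 0, Siglech at 79647 and 113603, and Flt3 2.10-fold lower. Over the 10 lists, the medians ran from -0.60 for plasma cells to 0.19 for platelets or megakaryocytes. In the plasma cell list 1 of 6 genes lay above 0 and 2 were dim on 1 array. Jchain of that list had signals of 1343 and 174, and Derl3 was 2.09-fold lower. Xbp1 of the same list was 1.24-fold higher (1277 and 1408), and Prdm1 differed by -0.0052 (976 and 866). The part of these markers in the values below was not tested. In a bulk sample, fewer cells of a type and less RNA per cell cannot be told apart.

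The respiratory chain lies in the inner mitochondrial membrane. Complex I takes electrons from NADH and complex II takes them from succinate, and both pass them to ubiquinone. Complex III moves them on to cytochrome c, and complex IV passes them to oxygen. Complexes I, III and IV pump protons, and complex V, the ATP synthase, lets protons flow back to make ATP. All these complexes except complex II hold subunits of both the nuclear and the mitochondrial genome. In macrophages the balance between this chain and glycolysis is known to shift with activation. None of the 13 subunits encoded by mitochondrial DNA had a named probe, so only nuclear genes are described.

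Promoters of members are shown because nuclear genes of this chain are known to share binding sites for the factors NRF1, GABPA, YY1 and ESRRA. Each is RefSeq sequence of GRCm38.p6, from 250 bases before to 50 bases after the annotated start, read 5′ to 3′ on the strand of the gene. Of the 79 measured members, 64 were in the promoter table and 59 had a single start there. The lines give the member of each complex with the highest difference, and the pair with the lowest differences, among those 59. Ndufa2, Sdhc and Cyc1, which have higher or lower values, are not among them. Capitals mark matches, on either strand, to CGCATGCG (the centre of the NRF1 motif), CCGGAAG (GABPA and other ETS factors), AAGATGGC (YY1) or AAGGTCA (ESRRA).
Ndufa8 (chr2:36049289-36049588, minus strand, complex I, highest): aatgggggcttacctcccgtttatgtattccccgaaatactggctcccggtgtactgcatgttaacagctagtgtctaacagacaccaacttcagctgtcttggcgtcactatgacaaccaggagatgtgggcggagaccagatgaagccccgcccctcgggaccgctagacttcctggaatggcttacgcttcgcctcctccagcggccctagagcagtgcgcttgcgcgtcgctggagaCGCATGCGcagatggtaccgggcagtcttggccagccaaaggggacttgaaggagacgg
Sdha (chr13:74350191-74350490, minus strand, complex II, highest): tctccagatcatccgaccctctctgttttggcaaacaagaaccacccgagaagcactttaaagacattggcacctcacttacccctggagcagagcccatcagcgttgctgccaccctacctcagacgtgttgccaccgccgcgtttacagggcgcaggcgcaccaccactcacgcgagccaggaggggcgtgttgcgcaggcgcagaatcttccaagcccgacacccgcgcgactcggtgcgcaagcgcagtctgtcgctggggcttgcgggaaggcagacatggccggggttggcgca
Uqcr11 (chr10:80406772-80407071, minus strand, complex III, highest): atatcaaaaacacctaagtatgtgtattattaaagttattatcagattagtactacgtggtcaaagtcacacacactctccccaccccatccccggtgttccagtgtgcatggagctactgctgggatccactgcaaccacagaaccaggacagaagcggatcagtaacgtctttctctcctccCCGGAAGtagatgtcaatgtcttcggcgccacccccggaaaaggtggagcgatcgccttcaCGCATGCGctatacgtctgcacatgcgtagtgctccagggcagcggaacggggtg
Cox7a2 (chr9:79759804-79760103, minus strand, complex IV, highest): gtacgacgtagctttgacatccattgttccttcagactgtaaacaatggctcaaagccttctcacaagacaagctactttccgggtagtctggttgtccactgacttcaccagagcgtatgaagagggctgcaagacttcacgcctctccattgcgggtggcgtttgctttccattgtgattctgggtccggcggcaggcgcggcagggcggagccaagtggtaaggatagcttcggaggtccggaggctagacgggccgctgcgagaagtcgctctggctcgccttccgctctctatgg
Atp5g3 (chr2:73911277-73911576, minus strand, complex V, highest): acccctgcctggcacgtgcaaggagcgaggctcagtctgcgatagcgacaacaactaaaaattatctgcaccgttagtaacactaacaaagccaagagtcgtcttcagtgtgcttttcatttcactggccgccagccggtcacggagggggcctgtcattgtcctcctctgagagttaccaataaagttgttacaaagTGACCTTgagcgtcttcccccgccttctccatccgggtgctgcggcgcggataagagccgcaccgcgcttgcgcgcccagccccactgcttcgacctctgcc
Atp5pb (chr3:105959214-105959513, minus strand, complex V, lowest of all): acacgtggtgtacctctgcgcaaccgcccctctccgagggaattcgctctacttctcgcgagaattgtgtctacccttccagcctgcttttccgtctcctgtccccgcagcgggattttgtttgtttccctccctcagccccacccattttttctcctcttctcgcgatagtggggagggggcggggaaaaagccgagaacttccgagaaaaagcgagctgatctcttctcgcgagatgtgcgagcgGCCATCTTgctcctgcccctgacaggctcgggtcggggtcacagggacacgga
Cox5b (chr1:36691237-36691536, plus strand, complex IV, next lowest): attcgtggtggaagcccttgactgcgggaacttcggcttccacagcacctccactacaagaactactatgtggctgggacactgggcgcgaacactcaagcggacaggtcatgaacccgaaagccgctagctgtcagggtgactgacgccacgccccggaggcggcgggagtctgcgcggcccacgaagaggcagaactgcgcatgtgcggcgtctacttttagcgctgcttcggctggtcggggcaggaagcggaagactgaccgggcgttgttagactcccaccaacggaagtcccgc

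The NRF1 letters were found in Ndufa8 and Uqcr11, the ETS letters in Uqcr11, the ESRRA letters in Atp5g3 and the YY1 letters in Atp5pb. No match lay in these windows for Sdha, Cox7a2 and Cox5b. Over all 59 members, the NRF1 letters were present in 8 (13.6%), against 2.46% of 14731 protein-coding genes with a single listed start. The ETS letters were present in 15 members (25.4%, against 11.8%), the YY1 letters in 9 (15.3%, against 3.35%) and the ESRRA letters in 8 (13.6%, against 4.09%). The 59 members are all measured genes, whereas the 14731 genes include genes that were not measured, so the sets are unlike in this. These are matches of letters only, with no measure of binding.

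Most respiratory chain genes had a higher scaled signal on the array labelled SIRPα-KO, by small amounts. Of the 79 measured members, 60 lay above 0, against 40.4% of all measured genes, and the members' median was 0.30 against -0.094 for all genes. At least 1.5-fold higher were 18 members, or 22.8%, against 11.4% of all genes, and at least 1.5-fold lower were 4, or 5.06%, against 13.7%. At the 2-fold limit the counts were 2 higher and 2 lower, against 3.1% and 5.5% of all genes. Among the 77 members well above background on both arrays, 32 (41.6%) were higher by more than 2 times their spot error and 6 (7.79%) were lower by as much. Of all 14156 genes well above background on both arrays, 15.6% and 19.2% were. The median stayed above 0 in the 11 alternatives that could change it. It was 0.13 with no scaling between the arrays, a setting that also put the median of all genes at -0.26.

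**Figure D1:**
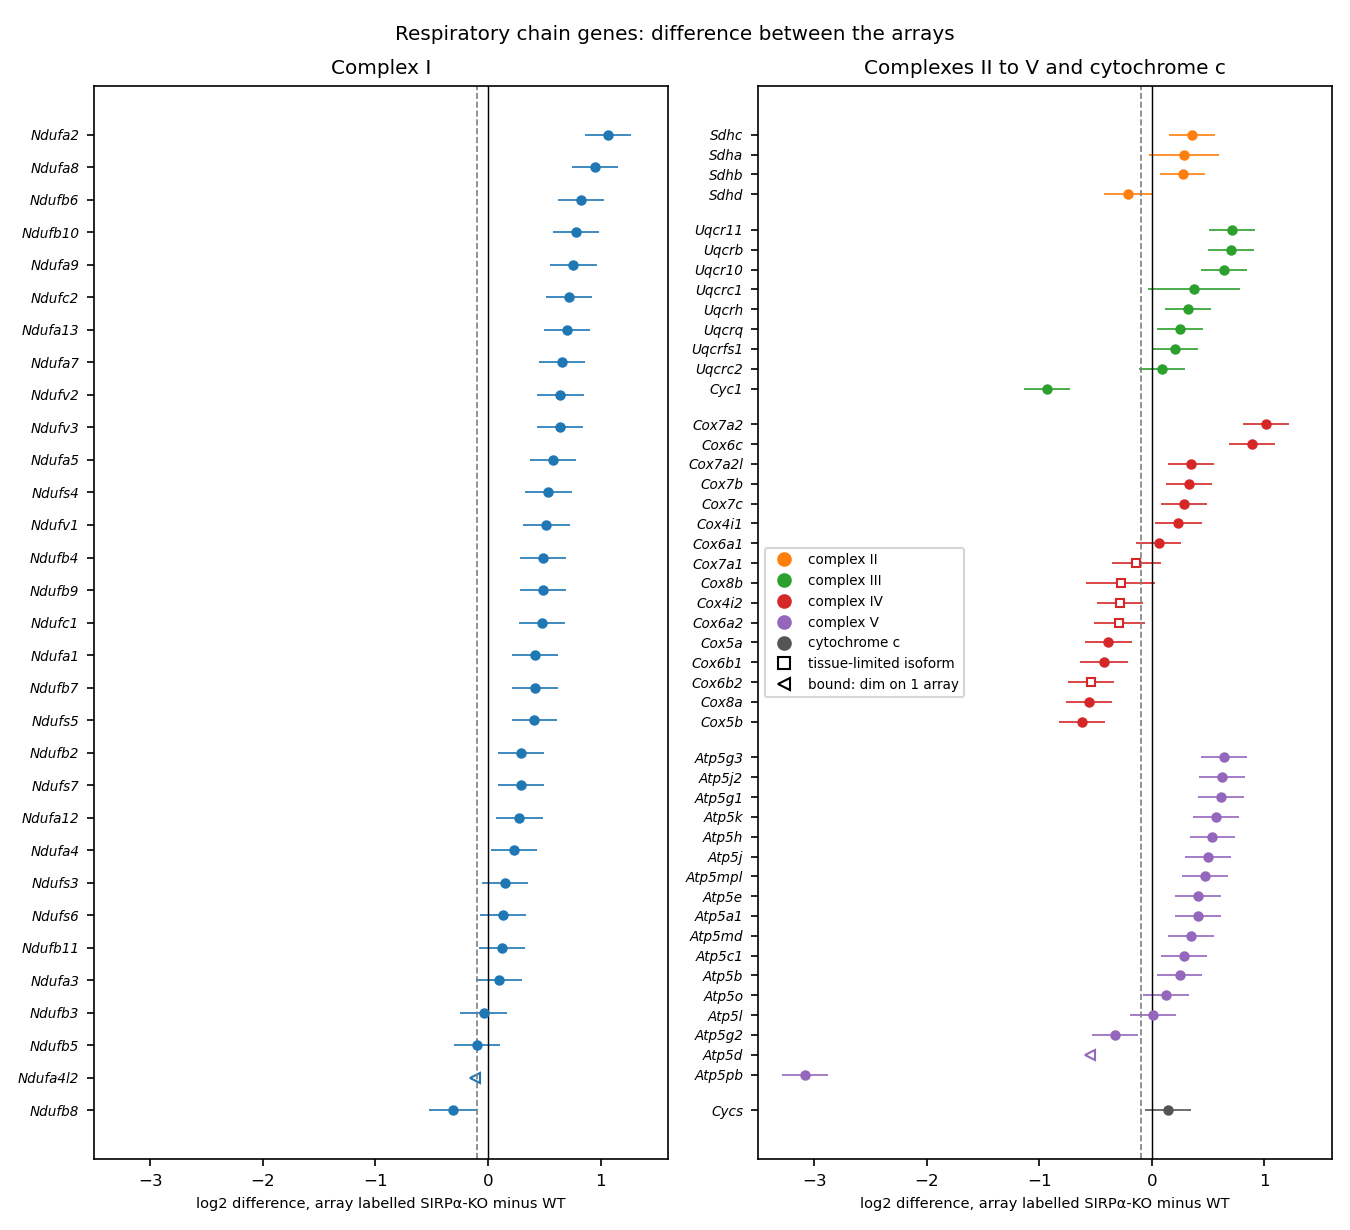
Difference of each measured member (log2, array labelled SIRPα-KO minus WT), ordered by size within complex I on the left and within complexes II to V and cytochrome c on the right. Bars are spot errors, open squares are isoforms known from certain tissues, open triangles are bounds for genes dim on 1 array, and the dashed line is the median of all measured genes at -0.094; 60 of 79 members lie above 0, and Atp5pb and Cyc1 lie far to the left. A single complex I gene that is not reported is not drawn as a member here or in the other plots. It is not taken out of the grey genes, medians or counts.

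Bright genes as a whole were shifted the other way, so the members were read against genes of like signal. All measured genes were split into 5 equal classes by mean signal. The brightest class held 48 members, with a median difference of 0.38 and 42 above 0. All 3165 genes of that class had a median of -0.27, and 31.4% of them were above 0. In the next class, 19 members had a median of 0.24, against -0.055 for all genes there. The lower 3 classes held 12 members. In the dimmest, 4 members had a median of 0.089 against -0.10 for all genes there. In the next classes up, 2 members had -0.28 against -0.041, and 6 had -0.17 against -0.033. With the median of all genes in the same of 20 signal bins taken off each value, the members' median was 0.55, and 64 of the 79 lay above 0. This adjusted median ranged from 0.41 to 0.58 over the alternatives.

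**Figure D2:**
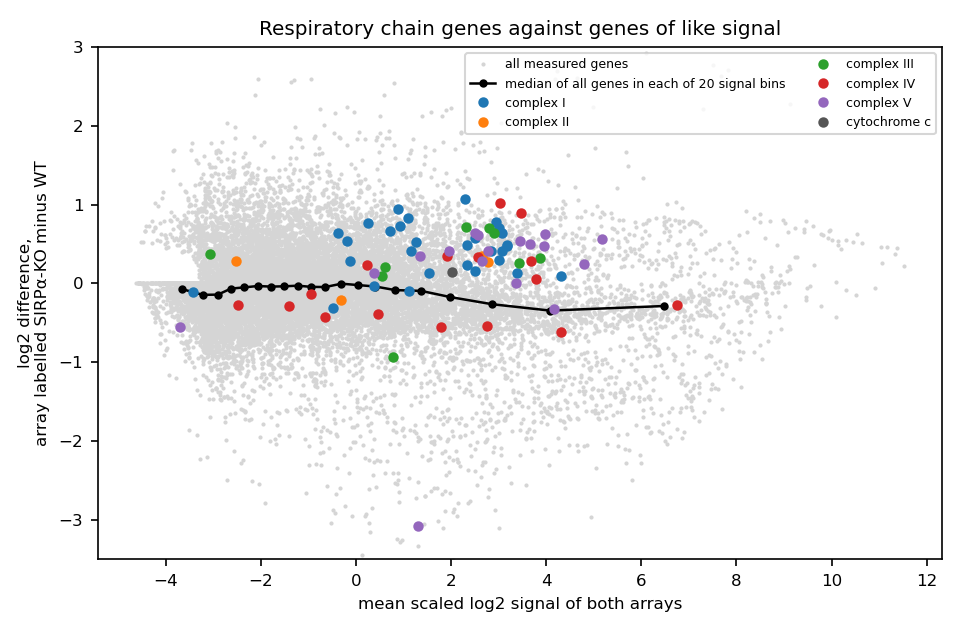
Difference against mean scaled signal (both log2) for all measured genes in grey and for members in colour, with the median of each of 20 signal bins as a black line. Grey genes beyond the limits of the vertical axis are not drawn; the black line falls to -0.35 among bright genes, while most members there lie above 0.

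**Figure D3:**
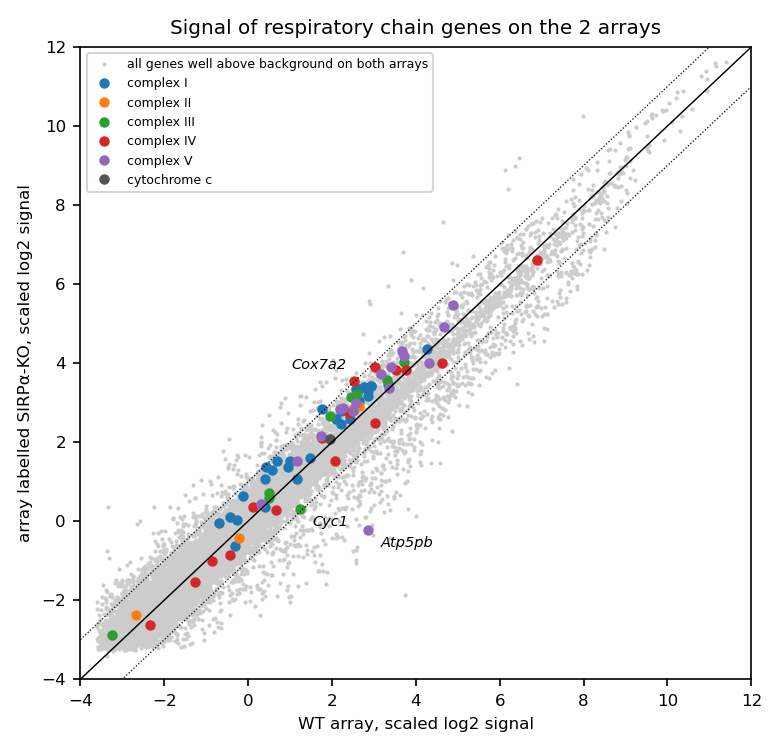
Scaled log2 signal on the array labelled SIRPα-KO against that on the WT array, for genes well above background on both. The solid line marks equal values and the dotted lines a 2-fold difference; most members lie just above the solid line, and Atp5pb lies below the lower dotted line.

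Most complex I genes lay above 0. Of its 37 genes with a probe, 32 were measured, with a median difference of 0.45. Of these, 27 (84.4%) lay above 0, 5 lay below and 10 (31.25%) were at least 1.5-fold higher. Of all measured genes, 40.4% lay above 0 and 11.4% were at least 1.5-fold higher. The median was between 0.28 and 0.63 over the alternatives.

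The core subunits of the matrix arm together carry the flavin and iron-sulphur clusters that take electrons from NADH to ubiquinone. Ndufv1, which binds NADH and the flavin, had signals of 200.3 and 256, a difference of 0.52 ± 0.20. Ndufv2, an iron-sulphur subunit beside it, went from 61.6 to 85.6 (0.64 ± 0.21), or 1.56-fold higher. Both lay above their spot error. Ndufs7, another iron-sulphur subunit, differed by 0.30 ± 0.20 (728 and 795) and Ndufs3 by 0.15 ± 0.20 (541 and 535). The Ndufs3 value was within its error and was -0.016 with no scaling. Ndufs1 and Ndufs8 were not well above background on either array.

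The accessory subunits surround this core and are needed for its assembly and stability. Of 29 with a probe, 26 were measured, with a median of 0.48. Above 0 were 23 of them (88.5%, against 40.4% of all measured genes). Ndufa2, a matrix-arm subunit, had the highest difference of the complex, from 341 to 635 (1.07 ± 0.20, 2.09-fold). Ndufa8, on the side of the intermembrane space, went from 134 to 229 (0.95 ± 0.21, 1.93-fold). The membrane-arm subunits Ndufb6 (161 and 254) and Ndufb10 (592 and 906) were 1.77-fold and 1.72-fold higher. A further 5 were between 1.56-fold and 1.69-fold higher. These were Ndufa9 (91.3 and 138), Ndufc2 (149 and 219), Ndufa13 (629 and 909), Ndufa7 (132 and 185) and Ndufv3 (675 and 935). Ndufa13 is also known as GRIM-19. A further Ndufv3 probe went the other way, by -0.33, from 69.0 to 48.9.

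Few accessory subunits lay below 0. Ndufb8 differed by -0.31 ± 0.21 (80.1 and 57.4), and Ndufb3 (-0.039) and Ndufb5 (-0.095) lay within their errors. A dimmer Ndufb5 probe differed by 0.39. Ndufa3, with signals of 1919 and 1824, differed by 0.095 ± 0.20. Ndufa6, Ndufa10 and Ndufa11 were not well above background on either array. Ndufa4 (467 and 489, 0.23 ± 0.20) is grouped here by its symbol, although it is now known as a subunit of complex IV. Its relative Ndufa4l2, induced by hypoxia, was well above background on the WT array only (10.2, against 7.54), which gives it as at least 1.08-fold lower. No direction was left after quantile normalization or cyclic loess, or in the authors' deposited table.

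Complex II, succinate dehydrogenase, links the chain to the citric acid cycle, and all 4 of its genes were measured. Sdha, the flavoprotein, had low signals of 15.7 and 17.1 (0.29 ± 0.31). Sdhb, the iron-sulphur subunit, went from 622 to 669 (0.27 ± 0.20), and the membrane anchor Sdhc from 555 to 631 (0.35 ± 0.20). Sdhd, the other anchor, differed by -0.21 ± 0.21 (86.2 and 66.3). No gene of this complex was 1.5-fold apart at its brightest probe, and the median of 0.28 ranged down to 0.11 with no scaling. Dimmer probes of Sdhb and Sdhc gave 0.82 and -0.011.

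In complex III the small subunits had a higher median than the redox and core subunits, with overlapping values. All 9 genes were measured, with a median of 0.32 and 8 above 0 (88.9%, against 40.4% of all measured genes). The small subunits hold the complex together and all 5 lay above 0, with a median of 0.64. Uqcr11 went from 388 to 565 (0.71 ± 0.20), Uqcrb from 547 to 793 (0.70 ± 0.20) and Uqcr10 from 601 to 834 (0.64 ± 0.20). These were 1.64-fold, 1.63-fold and 1.56-fold higher. Further Uqcrb probes gave 0.49 and 0.52, and further Uqcr10 probes gave 0.63 and -0.47. Uqcrh, the hinge protein, differed by 0.32 at its brightest probe (1307 and 1453) and 0.40 at the other, and Uqcrq by 0.25 and -0.16.

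The 4 redox and core subunits of complex III had a median of 0.15, which was -0.020 with no scaling, and 3 lay above 0. Cyc1, the cytochrome c1 heme protein that hands electrons to cytochrome c, had signals of 236 and 110.3. It was 1.90-fold lower (-0.93 ± 0.21), the only member of the complex below 0, although Uqcrc2 was at -0.076 with no scaling. Uqcrfs1, the Rieske iron-sulphur protein, differed by 0.20 ± 0.21 (142 and 145). Uqcrc1 was near the limit of detection, at 10.6 and 12.2 (0.37 ± 0.40). Uqcrc2, a core subunit, was spotted 10 times on each array and so gives a view of the spread between spots within an array. Its spots ran from 131 to 156 for WT (median 143) and from 125 to 147 for the array labelled SIRPα-KO (median 132), with SDs of 0.086 and 0.079 on the log2 scale. These SDs were below the medians over probes with repeat spots, 0.15 for WT and 0.14 for the array labelled SIRPα-KO. The Uqcrc2 spots overlapped before scaling, and the scaled difference was 0.093.

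Cycs, the mobile carrier between complexes III and IV and a trigger of apoptosis once released, had signals of 385 and 379. It differed by 0.14 ± 0.20, with a further probe at 0.50 (98.0 and 123). With no scaling its brightest probe was at -0.025.

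Complex IV, cytochrome c oxidase, was the exception among the complexes. Of 16 measured genes, 7 lay above 0 (43.8%, against 40.4% of all measured genes). The median was -0.21, against -0.094 for all genes. Against genes of like signal, complex IV was level, with an adjusted median of -0.042, 8 genes above 0 and 8 below. The adjusted medians of complexes I, II, III and V were 0.63, 0.45, 0.60 and 0.59. The nuclear subunits of complex IV surround a catalytic core that mitochondrial DNA encodes, and several exist as isoforms for certain tissues. The 11 widespread subunits and the isoforms had different values. The widespread ones had a median of 0.24, which stayed above 0 under all scalings (0.067 with none), with 7 of 11 above 0. The 5 measured isoforms all lay below 0, with a median of -0.28. After adjustment for like signal, 1 isoform lay above 0 and 4 below, with a median of -0.23. The adjusted median of the widespread subunits was 0.40. The median of the complex is therefore set by how both are counted.

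Among the widespread subunits, Cox7a2 went from 575 to 1035 (1.02 ± 0.20, 2.02-fold) and Cox6c from 813 to 1342 (0.89 ± 0.20, 1.85-fold). Both are small membrane-spanning subunits. Cox4i1, a regulatory subunit, differed by 0.24 ± 0.21 (108 and 113), Cox7b by 0.33 ± 0.20 (527 and 592) and Cox7a2l, which takes part in joining complexes into supercomplexes, by 0.35 ± 0.20 (337 and 381). Cox7c differed by 0.29 at its brightest probe (1159 and 1258), and by -0.47 and 0.083 at dimmer ones. Cox6a1 (1350.5 and 1252) differed by 0.059 ± 0.20. The other 4 widespread subunits lay below 0. Cox5b, a zinc-binding subunit on the matrix side, went from 2449 to 1421 (-0.62 ± 0.20, 1.53-fold lower). Cox5a, its matrix-side neighbour, differed by -0.39 ± 0.21 (159 and 108), and Cox6b1, on the cytochrome c side, by -0.43 ± 0.22 (73.7 and 48.8). Cox8a differed by -0.56 ± 0.20 (422 and 256), but its other probe by 0.064 (318 and 296).

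The isoforms are known from other tissues. Cox4i2 is known from lung and from hypoxic cells, yet its probe was bright, at 11875 and 8705 (-0.28 ± 0.20). That value was level with genes of like signal (0.0079 after adjustment). The probe of its widespread partner Cox4i1 read only 108 and 113. Whether the bright signal comes from Cox4i2 transcripts was not tested. Cox6b2, known from testis, went from 818 to 499.6 (-0.54 ± 0.20, or -0.28 after adjustment). The heart and muscle isoforms Cox6a2 (41.9 and 30.5, -0.29 ± 0.23), Cox7a1 (54.8 and 44.4, -0.14 ± 0.22) and Cox8b (19.7 and 14.4, -0.28 ± 0.31) were dim but well above background on both arrays. These 5 isoforms kept their sign under every scaling. Cox7b2 and Cox8c, both known from testis, were not well above background on either array.

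**Figure D4:**
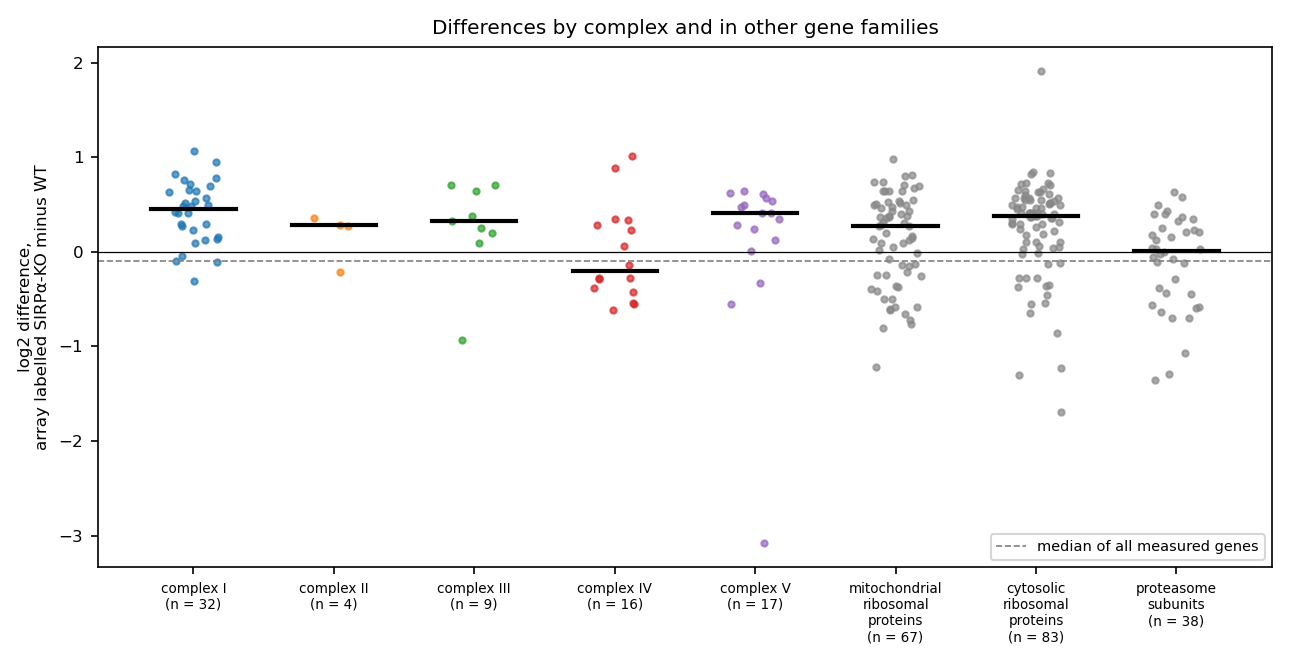
Difference of the measured genes (log2, array labelled SIRPα-KO minus WT) by complex and in 3 other families, with black bars for medians and a dashed line for the median of all measured genes. The complex I gene that is not reported is not drawn but is counted in the complex I median and gene number. Complexes I, II, III and V have medians from 0.28 to 0.45, complex IV lies at -0.21, and the families of ribosomal proteins lie at 0.27 and 0.38.

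Complex V, the ATP synthase, had 17 measured genes, with a median of 0.41. Above 0 were 14 of them (82.4%, against 40.4% of all measured genes). The catalytic head, F1, makes ATP as its central stalk is turned by the proton flow. Its subunits Atp5a1 (336 and 397), Atp5b (2538 and 2678), Atp5c1 (569 and 616) and Atp5e (596 and 705) lay above 0, between 0.25 and 0.41. The fifth, Atp5d, was well above background on the WT array only (13.8, against 3.85), so it was at least 1.46-fold lower.

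The c-ring is the proton-driven rotor, and its Atp5g1, Atp5g2 and Atp5g3 genes encode the same mature protein. Atp5g1 went from 478 to 652 (0.62 ± 0.20) and Atp5g3 from 457 to 635 (0.64 ± 0.20). Atp5g2 went from 2006 to 1419 (-0.33 ± 0.20), with a dimmer probe at 0.21 (761 and 785), and reached 0.022 after quantile normalization. Set against genes of like signal, all 3 c-ring genes lay above 0, with Atp5g2 at 0.014. All 5 small membrane subunits lay above 0, with a median of 0.47. Among these, Atp5j2 was 1.54-fold higher (1279 and 1757, 0.63 ± 0.20), with a dimmer probe at -0.44, and Atp5k went from 2985 to 3942 (0.57 ± 0.20), with its other probe at 0.52. Atp5l was read by 5 probes, at 0.0085 for the brightest and from 0.071 to 0.22 for the others, and its brightest fell below 0 with no scaling.

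The peripheral stalk holds the head still. Its subunits Atp5h (903 and 1167, 0.54 ± 0.20) and Atp5j (1059 and 1333, 0.50 ± 0.20) lay above 0, and Atp5o differed by 0.13 ± 0.21 (124 and 121). Atp5pb, the b subunit of the stalk, had the lowest value of all members. Its brightest probe had signals of 726 and 76.3, which is 8.47-fold lower (-3.08 ± 0.21). The second Atp5pb probe had signals of 34.0 and 47.4 and differed by 0.65, so the probes of this gene point in opposite directions.

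Further probes gave a check within each array. On both arrays, 21 members had several probes well above background. The next brightest probe had the same sign in 12 of these (57.1%), against 54.2% of 2611 genes over the whole array. The direction of a single gene was therefore often not repeated at its next probe. Examples are Atp5j2 (0.63 and -0.44) and Ndufv3 (0.64 and -0.33). Of the 21 next probes, 16 (76.2%) lay above 0, with a median of 0.21, against 47.8% and a median of -0.023 for those 2611 genes. At the brightest probes, 17 of 21 lay above 0, with a median of 0.32. Counted over single probes, 81 of 104 member probes well above background on both arrays (77.9%) lay above 0, against 44.4% of all 17173 such probes. Another 63 members with a probe, Cyc1 and Ndufa2 among them, had a single named probe. The probe sequences were not used here, so signal from pseudogenes, of which the name table lists 18 for this family, was not tested.

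**Figure D5:**
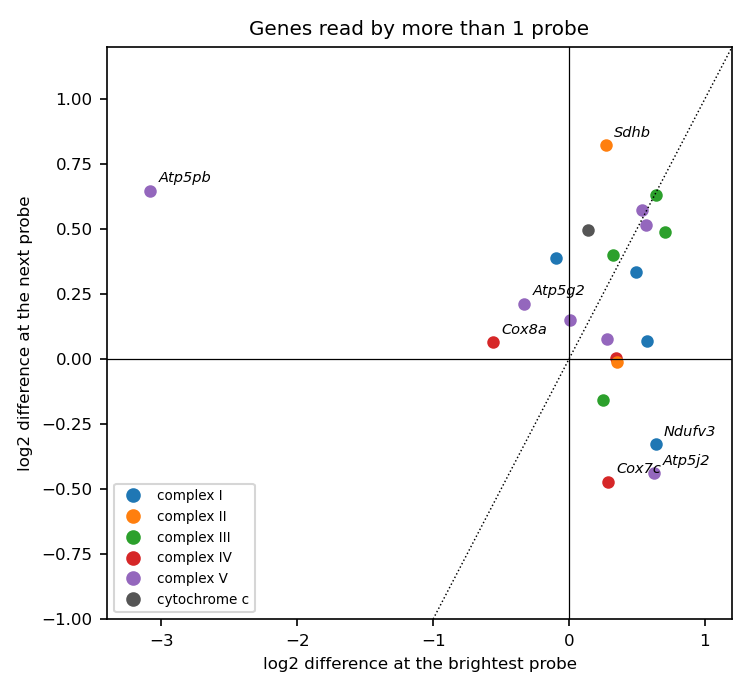
Difference at the next brightest probe against that at the brightest probe (log2, array labelled SIRPα-KO minus WT) for the 21 members that had several probes well above background; the dotted line marks equal values. The sign is shared by 12 of 21, and Atp5pb lies far left at -3.08 with its next probe at 0.65.

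The genes that build or serve the chain were taken from separate lists. Of 36 measured assembly factors, 15 (41.7%) lay above 0, against 40.4% of all measured genes. Their median was -0.069, within -0.24 and 0.025 over the scalings, against -0.094 for all genes. Adjusted for like signal, it was 0.072. At least 1.5-fold higher were 11 of them (30.6%) and at least 1.5-fold lower were 4 (11.1%), against 11.4% and 13.7% of all genes. By complex, their medians ran from -0.21 (complex I, 13 genes) to 0.65 (complex V, 3 genes). Among the factors for complex IV, 6 of 14 (42.9%) were at least 1.5-fold higher. Cox10, which makes heme for this complex, was 2.08-fold higher from low signals (20.8 and 38.5), and Coa3, Coa5, Coa6, Cox14 and Cox20 were 1.55-fold to 1.68-fold higher. Cox16 of the same set was 1.73-fold lower (1723 and 884). Among factors for complex I, 3 of 13 lay above 0; Ecsit was 1.66-fold higher, and Ndufaf3 (924 and 451) and Timmdc1 (8913 and 4859) were 1.82-fold and 1.63-fold lower. Tmem70, which serves the ATP synthase and complex I, was 1.97-fold higher (23.4 and 40.9), Atpaf2 1.57-fold and Uqcc3 1.67-fold higher. For complex II, Sdhaf1 was at least 1.75-fold lower and Sdhaf2 at least 1.54-fold higher, each dim on 1 array.

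Regulators of mitochondrial biogenesis had a median of -0.015 over 16 measured genes, between -0.17 and 0.0035 over the scalings. Above 0 were 7 of them (43.8%). For all measured genes the median was -0.094 and the share above 0 was 40.4%. Adjusted for like signal, the median of the regulators was 0.059. Nrf1, whose protein binds the NRF1 motif, was 1.56-fold higher (180 and 249). Tfb1m, a mitochondrial rRNA methyltransferase, was 1.93-fold lower (35.1 and 16.2), and Polg, the mitochondrial DNA polymerase, was at least 2.76-fold lower (26.0 and 4.72). Of 18 measured carriers and partner enzymes, 8 (44.4%) lay above 0, with a median of -0.0020, between -0.17 and 0.087 over the scalings. Adjusted for like signal, the median of the carriers and partner enzymes was 0.088. That list holds Ndufab1, the acyl carrier protein, which is a complex I subunit outside the rule on symbols and differed by 0.14 ± 0.40 at a low signal. Vdac2, a channel of the outer membrane, was 1.86-fold higher (815 and 1348) and Slc25a5, an ADP/ATP carrier, 1.71-fold higher (22.7 and 34.5). Dhodh, which feeds electrons from pyrimidine synthesis to ubiquinone, was 4.03-fold lower (1321 and 292).

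A higher median was not particular to the respiratory chain. The 83 measured genes of cytosolic ribosomal proteins had a median of 0.38, with 65 (78.3%) above 0. The 67 genes of mitochondrial ribosomal proteins had a median of 0.27, with 43 (64.2%) above 0. Proteasome subunits, with 38 measured genes, had a median of 0.013, with 19 (50%) above 0. Of all measured genes, 40.4% lay above 0. Adjusted for like signal, the medians were 0.64 for cytosolic and 0.37 for mitochondrial ribosomal proteins and 0.099 for the proteasome, beside 0.55 for the respiratory chain. No test of these differences was possible with 1 array per genotype. Both ribosomal medians stayed above 0 under all scalings, and the proteasome median fell to -0.14 with none.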

How the data were processed

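Gene expression was measured on 1-colour arrays, 1 for each genotype. The deposited scanner tables hold spot intensity on a linear scale, made by the authors with Agilent Feature Extraction 11.0.1.1 for design 26655 (build mm9), per the file headers. The processed signal is this intensity after the software's own background correction. A deposited table of the authors' log2 values, with a median of 4.56 on each array and rising with the scanner signal, served as an alternative; no source used here states its normalization.

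Of 43020 non-control spots, 321 flagged as outliers on either array were left out; no spot was saturated. Each array's log2 signals were scaled by its 75th percentile, a signal of 100.2 (WT) and 89.2 (labelled SIRPα-KO). Well above background were 71.5% of probes for WT and 65.3% for the array labelled SIRPα-KO. Spots of a probe were averaged. Probes were named by accession through RefSeq transcripts of GRCm38.p6 (27206 of 39386 probes), and a gene was represented by its named probe of highest mean signal. Where 1 array was dim, its value was raised to the lowest value well above background there, which gives an "at least" fold. Genes are counted at fixed folds of 1.5 and 2. The spread of repeat spots had a median SD of 0.15 (257 probes, WT) and 0.14 (228 probes).

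Named genes were the core and catalytic subunits, tissue-limited isoforms, Cycs and Cyc1, members at least 1.5-fold apart, the highest, lowest and brightest of each complex, members whose probes differed in sign, and genes of the other lists at least 1.5-fold apart; some further members are given for completeness. A single complex I gene is counted in the totals but not reported here. The members, lists, motifs and other families were chosen with earlier results of these data known. Alternatives used limma 3.58.1 in R 4.3.3 (quantile, cyclic loess, normexp with an offset of 50). The steps were tested on simulated data.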

Additional observations from a re-analysis of the deposited data

How the results depend on the processing

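With 1 array per genotype, no value here has a replicate check, and dim probes have the largest spot errors. No paired analysis was possible because each genotype had 1 array. The medians of all members and of complexes I, II, III and V stayed above 0 in the 11 alternatives that could change them (leaving out members that are no subunit removed none), and the count of members above 0 (60) ran from 51 with no scaling to 63 with no filter. The adjusted median moved by less than the spot spread in all 13 such alternatives. With no scaling, which shifts all genes alike, the medians were 0.13 for all members, 0.28, 0.11, 0.15, -0.38 and 0.24 for complexes I to V, and the counts were 7 at least 1.5-fold higher, 8 lower and 0 at least 2-fold higher. Quantile normalization gave 0.54 for all members (0.56 above all genes), 0.63, 0.44, 0.54 and 0.58 for complexes I, II, III and V, and counts of 33 at least 1.5-fold and 5 at least 2-fold higher. The authors' deposited table gave 0.51, with 0.62, 0.49 and 0.57 for complexes I, III and V, and counts of 31 and 5. Normexp gave 0.50, -0.053 and 0.61 for complexes III, IV and V, counts of 28 and 5 higher, and 2 at least 1.5-fold lower. Cyclic loess gave 0.45 for all members and 0.51 for complex III. With no filter on dim probes, complex IV was at -0.039, 8 members were at least 1.5-fold and 4 at least 2-fold lower. With the dimmest probe of each gene, 1 member was at least 2-fold lower, and Atp5pb turned to 0.65. Without the tissue-limited isoforms, complex IV turned to 0.24 because only widespread subunits remain. Apart from the shift with no scaling, the cause of these moves was not tested. Among 51 named genes, the differences moved by more than their spot error for 27 after quantile normalization, 24 in the authors' deposited table and 20 after normexp.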

Other observations

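The promoter letters described above were set beside the differences of the 59 members with a single listed start. Members with the NRF1 letters had a median difference of 0.26 (8 genes, 7 above 0), and those without had 0.30 (51 genes, 39 above 0). Members with the ETS letters had a median of 0.32 (15 genes, 12 above 0) and those without 0.30 (44 genes, 34 above 0). The YY1 letters went with 0.30 (9 genes) against 0.31 (50 genes), and the ESRRA letters with 0.41 (8 genes) against 0.29 (51 genes). None of these differences was tested.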
